A study of Homo sapiens with 9 samples.

Results

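SNAI1, SNAI2, ZEB1 and ZEB2 are zinc finger transcription factors that repress genes. They were chosen by symbol and not by a rule on measured values, though with earlier results of these data known. They are 4 of the 60676 genes in the deposited tables. Their transcripts were followed in the established human line RD, an embryonal rhabdomyosarcoma whose cells carry a skeletal muscle programme that they do not complete. Cells with the hairpin shTRPS1#1 (3 libraries) or shTRPS1#2 (3 libraries), both against TRPS1, were compared with cells with the non-targeting hairpin shNT (3 libraries). Every group, the controls included, was given doxycycline at 1 µM through 2 days in medium with 10% fetal bovine serum and a further 10 days in differentiation medium with 2% horse serum, so no library shows cells without doxycycline or in growth medium. The title of the series poses the question of whether TRPS1, a GATA-type repressor, holds back muscle differentiation in this tumour. The labels do not say whether the 3 libraries of a group came from separate cultures, so the spread behind each p-value may be technical. All libraries are of 1 cell line.

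The members belong to 2 families. SNAI proteins bind DNA through a single block of zinc fingers, and ZEB proteins through a zinc finger block at each end with a homeodomain between them. Both families recognise the E-box core CAGGTG, which reads CACCTG on the other strand, and recruit corepressors there. They are best known for silencing epithelial genes in the epithelial-mesenchymal transition. In mouse myoblasts SNAI1 and SNAI2 occupy muscle enhancers and keep MYOD1 away from G/C-rich E-boxes, and ZEB1 holds back muscle genes until differentiation. In human rhabdomyosarcoma cells SNAI1 and SNAI2 have been described as restraining differentiation. MYOD1 itself, the basic helix-loop-helix factor that starts the muscle programme, prefers the core CAGCTG.

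The cores can be seen in short stretches of promoter DNA from RefSeq (GRCh38.p14), each printed on the strand of its gene with the core in capitals. The first is the promoter window of ZEB1, 250 bases before to 50 after a transcription start, shown because it holds the SNAI and ZEB core 3 times in the gene of one of the factors. It lies at chr10:31318966-31319265 on the plus strand.
ZEB1: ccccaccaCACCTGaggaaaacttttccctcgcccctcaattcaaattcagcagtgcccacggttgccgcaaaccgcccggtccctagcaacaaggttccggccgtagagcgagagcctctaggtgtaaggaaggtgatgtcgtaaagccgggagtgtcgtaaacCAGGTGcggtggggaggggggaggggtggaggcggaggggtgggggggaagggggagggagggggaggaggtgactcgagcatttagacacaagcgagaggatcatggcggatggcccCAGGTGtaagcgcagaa
The next are sites with the same core in muscle genes, the giant sarcomere proteins nebulin (NEB, chr2:151734569-151734598, minus strand) and titin (TTN, chr2:178807545-178807574, minus strand) and the fast light chain MYL11 (chr16:30370888-30370917, plus strand). They are shown beside sites with the MYOD1 core in the fast myosin heavy chain MYH2 (chr17:10549699-10549728, minus strand), caveolin 3 (CAV3, chr3:8733715-8733744, plus strand) and muscle creatine kinase (CKM, chr19:45322957-45322986, minus strand). NEB, TTN, MYL11 and CKM were picked for this display after their values were seen. Another promoter window of MYL11, not printed, held both cores.
NEB: ggaattgatgaaCAGGTGgttttcagaaga
TTN: caatcagaagaaCAGGTGgtatgtgacact
MYL11: tgaaaaggggagCAGGTGgaggtcaaattg
MYH2: agaaagaagaggCAGCTGcattgtttccat
CAV3: agttatgtgggaCAGCTGtcagccggcatg
CKM: aggtgagaggctCAGCTGccctccagaact
The last are sites with the SNAI and ZEB core in epithelial genes, the tight junction claudin CLDN7 (chr17:7262596-7262625, minus strand) and the vesicle GTPase RAB25 (chr1:156061107-156061136, plus strand). They represent the class of gene for which these repressors are known.
CLDN7: cgacttccggttCAGGTGagtgtcccttcg
RAB25: catctctccaccCACCTGggccccaggtct
Over all 35116 promoter windows of the table, 20.6% held CAGGTG or CACCTG and 17.9% held CAGCTG. The table had 7 windows for ZEB1, of which 2 held the SNAI and ZEB core and 2 the MYOD1 core. The 1 window of ZEB2 held neither. SNAI1 and SNAI2 had no entry. A match of letters is a description of a window and not evidence that a protein binds there.

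Libraries held 21965744 to 23289062 counts, and 17014 genes had enough counts to be tested. The targeted gene checked the labels. TRPS1 had 57.8 ± 3.42 CPM (counts scaled to a common library size, with TMM factors) with shTRPS1#1, 57.4 ± 1.39 CPM with shTRPS1#2 and 73.5 ± 3.29 CPM with shNT (SD, n = 3 each), so the knockdown at the mRNA level was partial. A gene was called when its edgeR p-value, adjusted by Benjamini-Hochberg over the 17014 genes, was under 0.05. The labelled cell type was checked against its markers. MYOD1, MYOG, DES and CHRNA1 together summed to 3554 to 3685 CPM with shTRPS1#1, 3453 to 3512 CPM with shTRPS1#2 and 3099 to 3256 CPM with shNT, while MYF5 had no more than 1 count in any library. Of 9 markers of epithelium, endothelium, blood, glia, liver and melanocytes, none reached the expression filter and CD3E was at 0 throughout. Their summed level was 0.717 to 0.988 CPM with shTRPS1#1, 0.359 to 0.819 CPM with shTRPS1#2 and 0.438 to 0.654 CPM with shNT.

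All 4 members passed the expression filter. SNAI2 was lower with both hairpins, SNAI1 was higher with shTRPS1#2, ZEB2 was higher with shTRPS1#1, and ZEB1 was called with neither. With shTRPS1#1, 1 member was called higher and 1 lower, against 13.4% of all genes tested that were called (7.1% higher and 6.33% lower). With shTRPS1#2 it was again 1 higher and 1 lower, against 18.9% of all genes (9.01% higher and 9.87% lower). Between shTRPS1#2 and shTRPS1#1, 1 member was called, lower with shTRPS1#2, against 19.6% of all genes (8.9% higher and 10.7% lower). In bulk RNA, a change in how many cells carry a transcript and a change in the amount per cell cannot be told apart. The comparisons with shNT share the shNT libraries. How many of all genes tested have groups that do not overlap was not counted. A lack of overlap between groups is therefore given below as a description only.

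**Figure D1:**
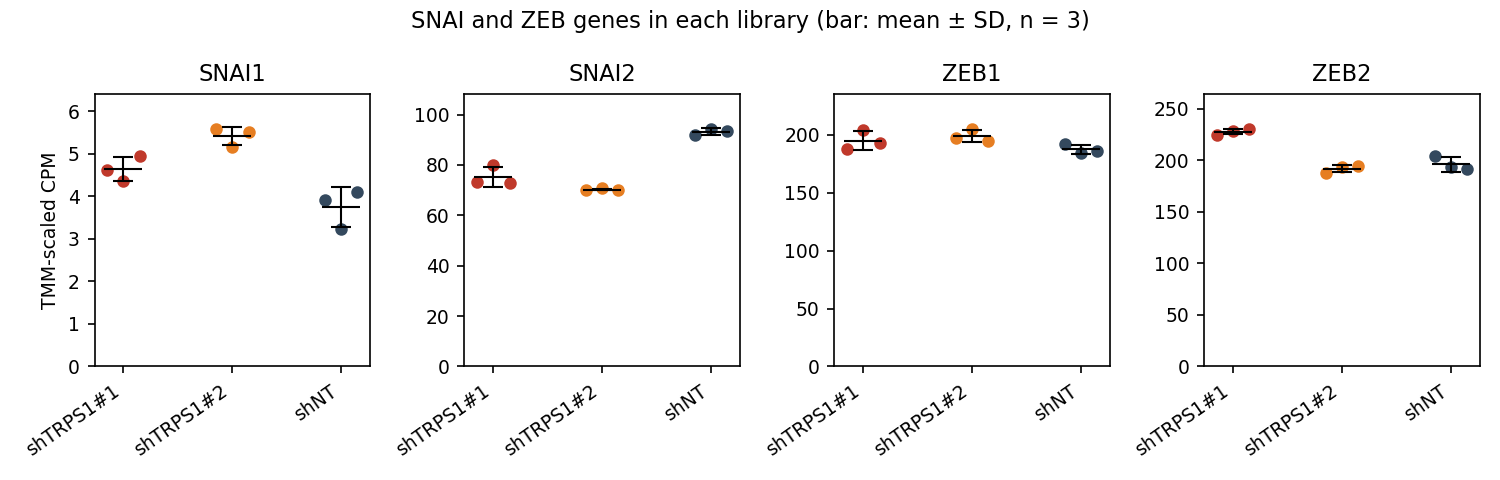
Each panel shows 1 gene, with CPM on an axis that starts at 0 and 1 point per library; horizontal bars are the mean and whiskers the SD of 3 libraries. For SNAI2 all 6 libraries of the TRPS1 hairpins, at 70.0 to 79.9 CPM, lie below the shNT libraries, and for ZEB2 the shTRPS1#1 libraries, at 224.8 to 230.3 CPM, lie above the other 6.

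SNAI2 (Slug, ENSG00000019549, chromosome 8, 48917604 to 48921740, minus strand, GRCh38) marks neural crest and mesenchymal cells and is known from human rhabdomyosarcoma as a repressor of muscle enhancers. It had 1634, 1775 and 1681 counts with shTRPS1#1, 1545, 1573 and 1575 counts with shTRPS1#2, and 2091, 2131 and 2141 counts with shNT. In CPM these were 73.2, 79.9 and 72.8 with shTRPS1#1, 70.1, 70.7 and 70.0 with shTRPS1#2, and 91.7, 94.2 and 93.6 with shNT. Every library of either hairpin lay below every shNT library, and shTRPS1#1 replicate 2 was the highest of the 6. The mean with shTRPS1#1 was 75.3 ± 4.0 CPM, or 80.8% of the shNT mean of 93.2 ± 1.30 CPM as fitted (SD, n = 3 each). The log2 fold change was -0.31 ± 0.04 (SE, 95% interval -0.39 to -0.23, edgeR adjusted p = 3.44e-08). With shTRPS1#2 the mean was 70.2 ± 0.369 CPM, 75.4% of the shNT level, a log2 fold change of -0.41 ± 0.04 (95% interval -0.49 to -0.33, edgeR adjusted p = 1.86e-11). The hairpins differed by -0.10 ± 0.04 (shTRPS1#2 minus shTRPS1#1, 95% interval -0.18 to -0.02), which missed the threshold (edgeR adjusted p = 0.079). Without shTRPS1#1 replicate 2 this difference was -0.06 (edgeR adjusted p = 0.398). The log2 fold changes of TRPS1 were -0.35 ± 0.04 with shTRPS1#1 and -0.36 ± 0.04 with shTRPS1#2.

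SNAI1 (Snail, ENSG00000124216, chromosome 20, 49982999 to 49988886, plus strand) is the founding member of its family, with a short-lived protein and a transcript that is commonly scarce. It had 103, 97 and 114 counts with shTRPS1#1, 123, 115 and 124 counts with shTRPS1#2, and 89, 73 and 94 counts with shNT. In CPM the libraries stood at 4.62, 4.37 and 4.94 with shTRPS1#1, 5.58, 5.17 and 5.51 with shTRPS1#2, and 3.90, 3.23 and 4.11 with shNT. As a description, the 3 groups did not overlap, with shTRPS1#2 highest and shNT lowest. The share of all genes tested that separate in this way was not counted. The mean with shTRPS1#2 was 5.42 ± 0.222 CPM, against 3.75 ± 0.462 CPM with shNT (SD, n = 3 each). This was 144% of the shNT level, a log2 fold change of 0.53 ± 0.12 (95% interval 0.29 to 0.78, edgeR adjusted p = 0.000876). With shTRPS1#1 the mean was 4.64 ± 0.285 CPM and the log2 fold change 0.31 ± 0.13 (95% interval 0.06 to 0.56), which was not called (edgeR unadjusted p = 0.0175, adjusted p = 0.101). The hairpins differed by 0.22 ± 0.12 (shTRPS1#2 minus shTRPS1#1, 95% interval -0.01 to 0.46, edgeR adjusted p = 0.197). At some 100 counts per library, SNAI1 had the widest intervals of the 4 members.

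SNAI1 and SNAI2 thus stood on opposite sides of shNT with shTRPS1#2. The number of SNAI2 counts per SNAI1 count, which is no ratio of levels because the transcripts differ in length, can be compared between libraries. It was 15.9, 18.3 and 14.7 with shTRPS1#1, 12.6, 13.7 and 12.7 with shTRPS1#2, and 23.5, 29.2 and 22.8 with shNT. All 6 ratios with a TRPS1 hairpin lay below the 3 with shNT, and the 3 with shTRPS1#2 lay below the 3 with shTRPS1#1. Over the 9 libraries, which fall into 3 groups, log2 CPM of SNAI1 and SNAI2 correlated at r = -0.917 (Pearson) and rho = -0.967 (Spearman), given as a description. The remaining family member SNAI3 had 2, 6 and 2 counts with shTRPS1#1, 7, 3 and 0 with shTRPS1#2, and 1, 6 and 3 with shNT, too few to test.

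ZEB2 (SIP1, ENSG00000169554, chromosome 2, 144364364 to 144524583, minus strand), first described as a partner of SMAD proteins, was the member on which the hairpins parted. It had 5014, 5076 and 5316 counts with shTRPS1#1, 4146, 4305 and 4379 counts with shTRPS1#2, and 4658, 4369 and 4371 counts with shNT. In CPM these were 224.8, 228.6 and 230.3 with shTRPS1#1, 188.1, 193.4 and 194.5 with shTRPS1#2, and 204.3, 193.2 and 191.1 with shNT. The shTRPS1#1 libraries were above all others, and those of shTRPS1#2 overlapped shNT. The mean with shTRPS1#1 was 227.9 ± 2.83 CPM, 116% of the 196.2 ± 7.10 CPM with shNT (SD, n = 3 each), a log2 fold change of 0.22 ± 0.03 (95% interval 0.15 to 0.28, edgeR adjusted p = 2.28e-06). With shTRPS1#2 the mean was 192.0 ± 3.40 CPM and the log2 fold change -0.03 ± 0.03 (95% interval -0.10 to 0.04, edgeR adjusted p = 0.601). The difference between the hairpins was itself called, at -0.25 ± 0.03 (shTRPS1#2 minus shTRPS1#1, 95% interval -0.32 to -0.18, edgeR adjusted p = 1.13e-07).

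ZEB1 (ENSG00000148516, chromosome 10, 31318495 to 31529814, plus strand) represses muscle genes in mouse myoblasts and the miR-200 family and CDH1 in carcinoma cells. It had 4193, 4531 and 4449 counts with shTRPS1#1, 4354, 4561 and 4379 counts with shTRPS1#2, and 4372, 4163 and 4261 counts with shNT. In CPM it stood at 187.9, 204.1 and 192.7 with shTRPS1#1, 197.5, 204.9 and 194.5 with shTRPS1#2, and 191.8, 184.1 and 186.3 with shNT. The shTRPS1#1 libraries overlapped those of shNT, and the shTRPS1#2 libraries lay above them by a narrow gap. The log2 fold change was 0.06 ± 0.04 with shTRPS1#1 (SE, 95% interval -0.01 to 0.13, edgeR adjusted p = 0.347), and 0.02 without shTRPS1#1 replicate 2 (edgeR adjusted p = 0.777). With shTRPS1#2 it was 0.09 ± 0.04 (95% interval 0.02 to 0.16, edgeR unadjusted p = 0.0176, adjusted p = 0.0806), so both intervals stop short of the size of the SNAI2 change. The call was gained without shNT replicate 1 (0.10, edgeR adjusted p = 0.0486) or without shTRPS1#2 replicate 3 (0.11, edgeR adjusted p = 0.0384). The hairpins differed by 0.03 ± 0.04 (shTRPS1#2 minus shTRPS1#1, edgeR adjusted p = 0.63), with a range of 0.0085 to 0.063 when 1 library was left out, the lowest without shTRPS1#1 replicate 1 and the highest without shTRPS1#1 replicate 2.

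**Figure D2:**
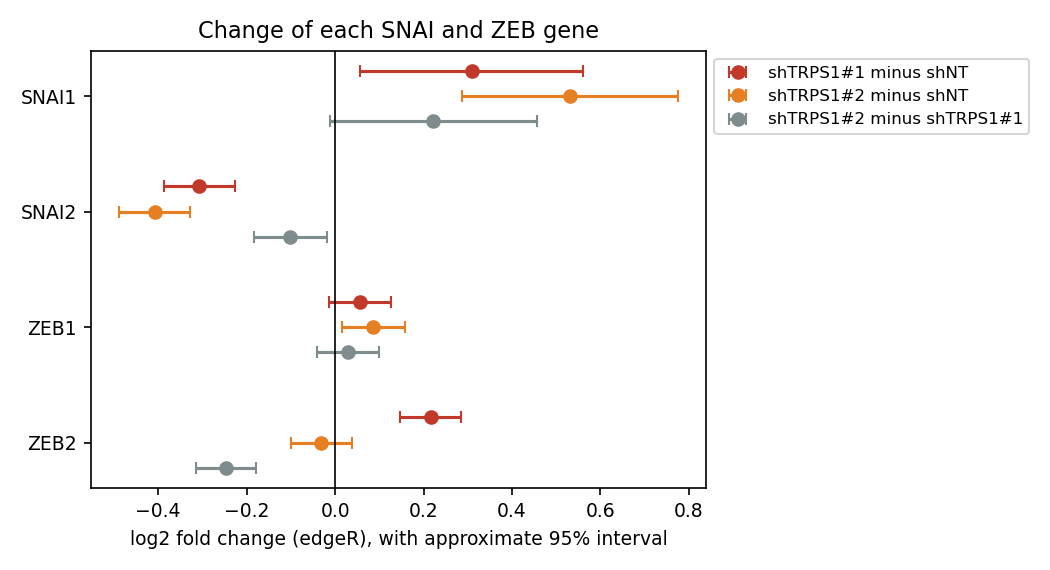
Points are edgeR log2 fold changes with approximate 95% intervals for the contrasts named in the legend, and the vertical line marks no change. The SNAI2 intervals against shNT lie wholly below 0, whereas for ZEB2 the interval with shTRPS1#1 (0.15 to 0.28) lies above that with shTRPS1#2 (-0.10 to 0.04).

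ZEB1 counts per ZEB2 count were 0.836, 0.893 and 0.837 with shTRPS1#1, 1.05, 1.06 and 1.00 with shTRPS1#2, and 0.939, 0.953 and 0.975 with shNT. The shTRPS1#1 ratios were the lowest and the shTRPS1#2 ratios the highest, with shNT between them and no overlap. ZEB1 counts per SNAI2 count were 2.57, 2.55 and 2.65 with shTRPS1#1, 2.82, 2.90 and 2.78 with shTRPS1#2, and 2.09, 1.95 and 1.99 with shNT. Antisense genes overlap exons of both ZEB genes, and since the strand setting of the counting is not given in the sources used here, reads from the pairs cannot be told apart. ZEB1-AS1 averaged 185.1 counts per library and ZEB2-AS1 18.8, small against their partners, and neither was called with either hairpin. The log2 fold changes of ZEB1-AS1 were -0.12 ± 0.09 with shTRPS1#1 and -0.07 ± 0.09 with shTRPS1#2 (edgeR adjusted p = 0.477 and 0.687). Those of ZEB2-AS1 were 0.02 ± 0.30 and -0.18 ± 0.31. The pseudogene SNAI1P1 had 0 to 3 counts per library and ZEB2P1 a total of 1.

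Levels of different genes were compared as RPKM, counts divided by gene length and library total. SNAI2 had 22.8 ± 1.26 RPKM with shTRPS1#1, 21.5 ± 0.0391 RPKM with shTRPS1#2 and 28.4 ± 0.483 RPKM with shNT (SD, n = 3 each). ZEB1 had 22.4 ± 0.998 RPKM with shTRPS1#1, 23.1 ± 0.534 RPKM with shTRPS1#2 and 21.7 ± 0.411 RPKM with shNT. SNAI2 was thus the most abundant member with shNT, its libraries overlapped those of ZEB1 with shTRPS1#1, and ZEB1 lay above it with shTRPS1#2. ZEB2 had 9.10 ± 0.116 RPKM with shTRPS1#1, 7.74 ± 0.141 RPKM with shTRPS1#2 and 7.90 ± 0.282 RPKM with shNT. SNAI1 was scarcest in every group, at 2.7 ± 0.161 RPKM with shTRPS1#1, 3.19 ± 0.140 RPKM with shTRPS1#2 and 2.2 ± 0.261 RPKM with shNT. Among the genes tested, the shNT levels stood at the 91.6th percentile for SNAI2, the 88.1st for ZEB1, the 66.4th for ZEB2 and the 38.6th for SNAI1.

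The order depends on the length taken. The RPKM of ZEB2 divides by 24861 bases, all exons of the gene together, while its principal transcript in GENCODE release 29 has 9541. Per kilobase of principal transcript, a scale added after the data were seen, ZEB2 stood at 23.7 with shTRPS1#1, 20.2 with shTRPS1#2 and 20.6 with shNT. ZEB1, over 5423 bases, then stood at 35.7 with shTRPS1#1, 36.8 with shTRPS1#2 and 34.6 with shNT. SNAI2, over 2428 bases, stood at 30.8 with shTRPS1#1, 29.01 with shTRPS1#2 and 38.4 with shNT. On this scale ZEB1 was above SNAI2 with both TRPS1 hairpins and SNAI2 above ZEB1 with shNT, without overlap. SNAI1, over 1686 bases, remained lowest, at 2.73 with shTRPS1#1, 3.22 with shTRPS1#2 and 2.22 with shNT.

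**Figure D3:**
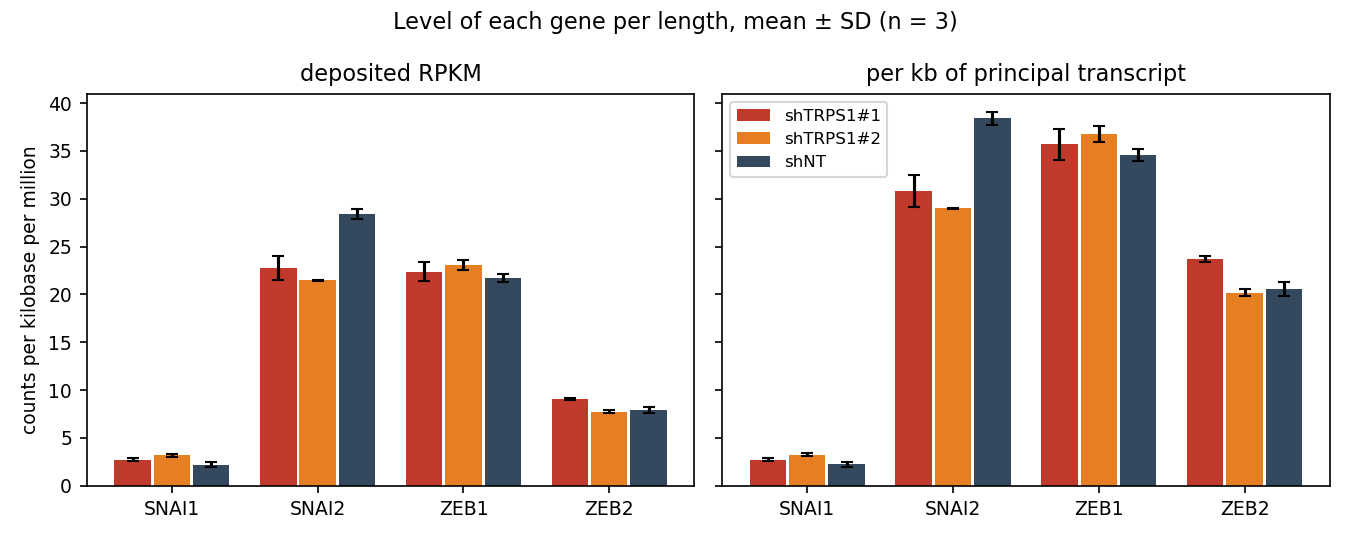
Bars are group means with the SD of 3 libraries, on the left for the deposited RPKM and on the right per kilobase of principal transcript, both on the same axis from 0. With shNT SNAI2 is the highest bar on both scales (28.4 and 38.4), and the shNT bar of ZEB2 is 7.90 on the left scale and 20.6 on the right.

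The genes whose log2 CPM followed each member most closely over the 9 libraries were ranked among 12779 genes. This likeness reflects the 3 groups as much as the libraries within them, and is given as a description. For SNAI1 they were the ephrin receptor EPHA4 (r = 0.982), the damage-binding subunit DDB1 (r = 0.964) and the arrestin family gene ARRDC4 (r = 0.960). EPHA4 averaged 6.05 CPM with shTRPS1#1, 8.20 CPM with shTRPS1#2 and 4.49 CPM with shNT. For SNAI2 they were TNFAIP8L3 (r = 0.977), the collagen gene COL26A1 (r = 0.975) and the zinc finger gene ZNF217 (r = 0.973). COL26A1 averaged 186.8 CPM with shTRPS1#1, 175.3 CPM with shTRPS1#2 and 225.4 CPM with shNT. For ZEB1 they were FILIP1 (r = 0.949), KLHL8 (r = 0.945) and NBEA (r = 0.932). For ZEB2 they were the semaphorin receptor PLXNC1 (r = 0.978), the translesion polymerase REV1 (r = 0.977) and DTX4 (r = 0.974). DTX4 averaged 20.7 CPM with shTRPS1#1, 13.6 CPM with shTRPS1#2 and 15.1 CPM with shNT.

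Signals upstream of the members were read from 18 genes of TGF-beta signalling, a pathway that induces SNAI and ZEB genes. With shTRPS1#1, 2 were called higher and 5 lower (median log2 fold change -0.05), and with shTRPS1#2, 4 were higher and 6 lower (median -0.05), against medians of 0.001 and -0.006 over all genes tested. The called shares were 38.9% with shTRPS1#1 and 55.6% with shTRPS1#2, against 13.4% and 18.9% of all genes tested. HMGA2, a chromatin protein that works with SMADs at the SNAI1 promoter, averaged 638.5 ± 26.4 CPM with shTRPS1#1, 647.5 ± 15.6 CPM with shTRPS1#2 and 786.7 ± 10.5 CPM with shNT (SD, n = 3 each). Its log2 fold changes were -0.30 ± 0.03 with shTRPS1#1 and -0.28 ± 0.03 with shTRPS1#2 (edgeR adjusted p = 1.51e-10 and 9.94e-10). The type I receptor TGFBR1 fell with both hairpins (-0.16 ± 0.03 with shTRPS1#1 and -0.25 ± 0.03 with shTRPS1#2), as did the SMAD corepressor SKIL (-0.28 ± 0.04 and -0.25 ± 0.04). The signal transducer SMAD3 rose with both (0.18 ± 0.04 and 0.15 ± 0.04). The ligand TGFB3 rose with shTRPS1#2 (0.29 ± 0.05), against 0.03 ± 0.05 with shTRPS1#1, which was not called.

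SNAI and ZEB proteins act through corepressors. Of 20 cofactor genes, 1 was higher and 0 lower with shTRPS1#1 (median log2 fold change 0.003), and 1 was higher and 6 lower with shTRPS1#2 (median -0.04). This is 5% called with shTRPS1#1 and 35% with shTRPS1#2, against 13.4% and 18.9% of all genes tested. Directly between shTRPS1#2 and shTRPS1#1, 0 were higher and 5 lower. This is 25% called, against 19.6% of all genes tested (8.9% higher and 10.7% lower). EZH2, the histone H3 lysine methyltransferase of the Polycomb complex, averaged 74.6 ± 0.572 CPM with shTRPS1#1, 52.6 ± 1.98 CPM with shTRPS1#2 and 69.1 ± 1.48 CPM with shNT (SD, n = 3 each). Its log2 fold change was -0.39 ± 0.04 with shTRPS1#2 (edgeR adjusted p = 2.21e-10). With shTRPS1#1 it was 0.11 ± 0.04 (edgeR adjusted p = 0.0594), a call gained without shTRPS1#2 replicate 3 (0.11, edgeR adjusted p = 0.0445). CTBP2, a corepressor that ZEB proteins bind directly, averaged 83.5 ± 0.258 CPM with shTRPS1#1, 66.2 ± 4.31 CPM with shTRPS1#2 and 83.5 ± 0.791 CPM with shNT. The maintenance DNA methyltransferase DNMT1 (-0.21 ± 0.03) and the lysine methyltransferase EHMT2 (-0.19 ± 0.04) also fell with shTRPS1#2. AJUBA, a LIM protein that bridges SNAI1 to its partners, rose with both (0.18 ± 0.05 with shTRPS1#1 and 0.26 ± 0.05 with shTRPS1#2). Leaving out shTRPS1#1 replicate 1 ended its shTRPS1#1 call (0.15, edgeR adjusted p = 0.0709).

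Of 20 genes whose products set the stability of SNAI and ZEB proteins, 1 was called higher and 0 lower with shTRPS1#1, and 1 higher and 1 lower with shTRPS1#2, or 5% and 10% called, against 13.4% and 18.9% of all genes tested. SIAH1, a ubiquitin ligase, fell with shTRPS1#2 (-0.31 ± 0.06), and its value with shTRPS1#1 was -0.15 ± 0.06 (edgeR adjusted p = 0.108). The kinase ATM, which stabilises ZEB1 in human cancer cells, rose with shTRPS1#2 (0.11 ± 0.03), and the kinase GSK3A rose with shTRPS1#1 (0.11 ± 0.04). The deubiquitinase USP37 was at 0.11 ± 0.04 with shTRPS1#1 and -0.10 ± 0.04 with shTRPS1#2, and the SNAI1 ligase subunit FBXO11 at -0.05 ± 0.04 and -0.09 ± 0.04, with no call against shNT. Between the hairpins USP37 was called, at -0.21 (shTRPS1#2 minus shTRPS1#1, edgeR adjusted p = 0.00014). Its value passed with shTRPS1#1 without shTRPS1#1 replicate 1 (0.14, edgeR adjusted p = 0.0413), and that of FBXO11 with shTRPS1#2 without shTRPS1#2 replicate 3 (-0.12, edgeR adjusted p = 0.0337). The ATM call was lost without shNT replicate 2 or 3 or shTRPS1#2 replicate 2 (0.09 to 0.11, edgeR adjusted p up to 0.0926). That of GSK3A was lost in DESeq2 and without any single library of shTRPS1#1 or shNT, or replicate 1 or 2 of shTRPS1#2 (0.10 to 0.12, edgeR adjusted p up to 0.196). Protein amounts were not measured here.

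Other transcription factors of the epithelial-mesenchymal transition were split in direction. Of 16 listed, 12 were tested. With shTRPS1#1, 1 was higher and 4 lower (median log2 fold change -0.07), and with shTRPS1#2, 2 were higher and 3 lower (median -0.04). The called share was 41.7% with either hairpin, against 13.4% and 18.9% of all genes tested. The hairpins were not alike, since compared directly, 4 were higher and 4 lower with shTRPS1#2 than with shTRPS1#1. This is 66.7% called, against 19.6% of all genes tested (8.9% higher and 10.7% lower). The homeobox gene PRRX1 rose with both (0.38 ± 0.05 with shTRPS1#1 and 0.17 ± 0.05 with shTRPS1#2). SOX4 fell with both (-0.25 ± 0.03 and -0.12 ± 0.03). ETS1 fell with shTRPS1#1 (-0.23 ± 0.03), with an uncalled -0.06 ± 0.03 under shTRPS1#2. SOX9 fell with shTRPS1#2 (-0.29 ± 0.06), with an uncalled -0.09 ± 0.06 under shTRPS1#1. The shTRPS1#2 calls of PRRX1 (0.14, edgeR adjusted p = 0.0889) and SOX4 (-0.09, edgeR adjusted p = 0.0951) were lost without shNT replicate 2, that of SOX4 also without shTRPS1#2 replicate 3 (-0.09, edgeR adjusted p = 0.082).

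The epithelial genes that SNAI and ZEB proteins are known to silence were mostly near 0 in every group. Of 31 listed, 22 did not pass the expression filter, and none of these had more than 14 counts in a library. CDH1, E-cadherin, averaged 0 CPM with shTRPS1#1, 0.0593 CPM with shTRPS1#2 and 0.0293 CPM with shNT. KRT19 and the miR-200 host gene MIR200CHG had no count in any library, and the totals over 9 libraries were 6 counts for CLDN7 and 12 for RAB25, whose sites are printed above. Of the 9 tested, 1 was called higher and 2 lower with shTRPS1#1 (median log2 fold change -0.009), and 1 higher and 0 lower with shTRPS1#2 (median 0.10), or 33.3% and 11.1% called, against 13.4% and 18.9% of all genes tested. Occludin, OCLN, a tight junction protein, averaged 1.55 ± 0.316 CPM with shTRPS1#1, 0.674 ± 0.161 CPM with shTRPS1#2 and 0.732 ± 0.179 CPM with shNT, a log2 fold change of 1.08 ± 0.25 with shTRPS1#1 (edgeR adjusted p = 0.00149). Keratin 8, KRT8, fell with shTRPS1#1 (-0.74 ± 0.26, edgeR adjusted p = 0.0483), and the junction protein TJP3 rose with shTRPS1#2 (0.83 ± 0.27, edgeR adjusted p = 0.0201), both from under 2 CPM. Plakoglobin, JUP, fell with shTRPS1#1 (-0.14 ± 0.04), and KRT18 was called with neither hairpin against shNT. Between the hairpins, 2 of the 9 were higher and 1 lower with shTRPS1#2, or 33.3% called, against 19.6% of all genes tested. These were KRT18 (0.40), KRT8 (0.85) and OCLN (-1.20, shTRPS1#2 minus shTRPS1#1, edgeR adjusted p = 0.00765, 0.0128 and 0.000418). Whether these direct calls depend on single libraries is not given here. The calls of KRT8, TJP3 and JUP against shNT depended on single libraries. That of JUP was lost without shNT replicate 3 (-0.12, edgeR adjusted p = 0.0649) or shTRPS1#1 replicate 3 (-0.12, edgeR adjusted p = 0.0697), and that of TJP3 without shNT replicate 1 or 2 or shTRPS1#2 replicate 2 (0.65 to 0.84, edgeR adjusted p up to 0.162). The KRT8 call with shTRPS1#1 against shNT was lost in DESeq2 and without any shNT library. It was also lost without replicate 1 or 2 of shTRPS1#1 or replicate 2 of shTRPS1#2 (-0.82 to -0.51 without 1 library, edgeR adjusted p up to 0.296). Of 22 promoter windows of the listed epithelial genes that matched, 15 (68.2%) held CAGGTG or CACCTG and 3 (13.6%) held CAGCTG. The list was made of known SNAI and ZEB targets, so the first share is not independent of its choice.

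Mesenchymal genes, which are commonly high where these factors are active, moved down where they were called with shTRPS1#2 and both ways with shTRPS1#1. Of 20 tested, 5 were higher and 5 lower with shTRPS1#1 (median log2 fold change 0.009), and 0 were higher and 11 lower with shTRPS1#2 (median -0.09). The called shares were 50% and 55%, against 13.4% and 18.9% of all genes tested. Directly between shTRPS1#2 and shTRPS1#1, 3 were higher and 10 lower. This is 65% called, against 19.6% of all genes tested (8.9% higher and 10.7% lower). The matrix protein periostin, POSTN, averaged 2.59 ± 0.570 CPM with shTRPS1#1, 2.98 ± 0.0766 CPM with shTRPS1#2 and 5.24 ± 0.573 CPM with shNT, log2 fold changes of -1.02 ± 0.14 and -0.81 ± 0.14 (edgeR adjusted p = 1.56e-07 and 7.09e-06). The intermediate filament gene VIM fell with both (-0.17 ± 0.03 with shTRPS1#1 and -0.08 ± 0.03 with shTRPS1#2), as did the protease MMP14 (-0.19 ± 0.03 and -0.15 ± 0.03) and the surface protein THY1 (-0.23 ± 0.03 and -0.14 ± 0.03). The hairpins called COL1A1 and S100A4 in opposite directions. COL1A1, a fibrillar collagen, averaged 1285 ± 52.4 CPM with shTRPS1#1, 926.1 ± 7.95 CPM with shTRPS1#2 and 1176 ± 43.6 CPM with shNT. S100A4 averaged 44.6 ± 0.919 CPM with shTRPS1#1, 29.5 ± 1.24 CPM with shTRPS1#2 and 40.4 ± 2.24 CPM with shNT. The shTRPS1#1 calls of this pair did not hold throughout. That of COL1A1 was lost without shNT replicate 2 or shTRPS1#1 replicate 1 (0.10 for both, edgeR adjusted p up to 0.0584). That of S100A4 was lost in DESeq2 and without shNT replicate 1 or 2, shTRPS1#1 replicate 1 or 3 or shTRPS1#2 replicate 2 (0.10 to 0.14, edgeR adjusted p up to 0.25). The VIM call with shTRPS1#2 was lost with every other scaling tried and without shNT replicate 2 or 3, shTRPS1#2 replicate 1 or 2 or shTRPS1#1 replicate 1 (-0.08 to -0.07, edgeR adjusted p up to 0.16).

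SNAI2 is known to protect cells from programmed death by repressing genes of the BCL2 family, and 12 genes of this group were read. With shTRPS1#1, 2 were higher and 2 lower, and with shTRPS1#2, 2 were higher and 4 lower (median log2 fold changes 0.002 and -0.05), or 33.3% and 50% called, against 13.4% and 18.9% of all genes tested. BMF, a death-promoting gene, averaged 101.3 ± 3.74 CPM with shTRPS1#1, 92.8 ± 6.21 CPM with shTRPS1#2 and 114.0 ± 2.46 CPM with shNT. It fell with both hairpins, by log2 fold changes of -0.17 ± 0.04 and -0.30 ± 0.04 (edgeR adjusted p = 0.00156 and 1.12e-07). The cell cycle inhibitor CDKN1A rose with both (0.60 ± 0.04 with shTRPS1#1 and 0.36 ± 0.04 with shTRPS1#2), as did the survival gene BCL2L1 (0.20 ± 0.04 and 0.13 ± 0.04). BCL2L11, another death-promoting gene, fell with shTRPS1#2 (-0.14 ± 0.04). Its call was lost without shTRPS1#2 replicate 3 (-0.08, edgeR adjusted p = 0.149) and in both limma alternatives (limma adjusted p = 0.0638 and 0.067).

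The factors that share E-boxes with the members were measured as well. MYOD1 averaged 98.6 ± 5.87 CPM with shTRPS1#1, 88.4 ± 5.86 CPM with shTRPS1#2 and 85.8 ± 2.17 CPM with shNT, and was called higher with shTRPS1#1 (0.20 ± 0.04) but not with shTRPS1#2 (0.04 ± 0.04). MYOG, the factor of terminal differentiation, rose with both (0.19 ± 0.04 and 0.20 ± 0.04). Of the E-proteins that pair with them, TCF4 fell with shTRPS1#1 (-0.12 ± 0.03), TCF12 fell with shTRPS1#2 (-0.17 ± 0.03) and TCF3 was called with neither. The TCF4 call was lost without shNT replicate 1 or shTRPS1#1 replicate 1 or 3 (-0.10 to -0.09, edgeR adjusted p up to 0.13), and TCF3 gained one with shTRPS1#1 without shTRPS1#1 replicate 2 (0.10, edgeR adjusted p = 0.0363).

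Of 36 muscle genes listed 35 were tested, and 28 were higher and 1 lower with shTRPS1#1 (median log2 fold change 0.48), and 33 higher and 1 lower with shTRPS1#2 (median 0.53). The called shares were 82.9% with shTRPS1#1 and 97.1% with shTRPS1#2, against 13.4% and 18.9% of all genes tested. Compared directly, 11 were higher and 8 lower with shTRPS1#2 than with shTRPS1#1. That is 54.3% called, against 19.6% of all genes tested (8.9% higher and 10.7% lower). This list repeats a rise already known in these libraries and is given for its E-boxes. MYH2 averaged 3.70 ± 0.275 CPM with shTRPS1#1, 3.29 ± 0.308 CPM with shTRPS1#2 and 1.57 ± 0.109 CPM with shNT. CAV3 rose by 0.84 ± 0.08 with shTRPS1#1 and 0.92 ± 0.08 with shTRPS1#2, the perinatal myosin MYH8 by 1.35 ± 0.05 and 0.83 ± 0.05, the slow troponin TNNC1 by 0.77 ± 0.05 and 1.07 ± 0.05, and the M-band protein MYOM2 by 0.75 ± 0.05 and 0.78 ± 0.05. MYMX, a fusion peptide, was the gene that fell with both (-0.67 ± 0.08 and -0.77 ± 0.08). Promoter windows were found for only 23 of the 36 muscle genes listed. Of their 37 windows, 11 (29.7%) held the SNAI and ZEB core and 12 (32.4%) the MYOD1 core. Among the genes printed above, the carriers of CAGGTG changed by 0.46 ± 0.04 and 0.62 ± 0.04 (NEB), 0.62 ± 0.04 and 0.92 ± 0.04 (TTN), and 0.39 ± 0.04 and 0.44 ± 0.04 (MYL11) with shTRPS1#1 and shTRPS1#2. Of all 9 tested muscle genes with CAGGTG or CACCTG in a window, 5 were called higher with shTRPS1#1 and 8 with shTRPS1#2, and 0 lower. Of the 13 whose windows lacked it, 12 and 13 were called higher and 0 lower. Medians were 0.37 with shTRPS1#1 and 0.42 with shTRPS1#2 for the 9, and 0.63 and 0.53 for the 13. This difference was not tested, and the windows hold promoters and not the distant enhancers.

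**Figure D4:**
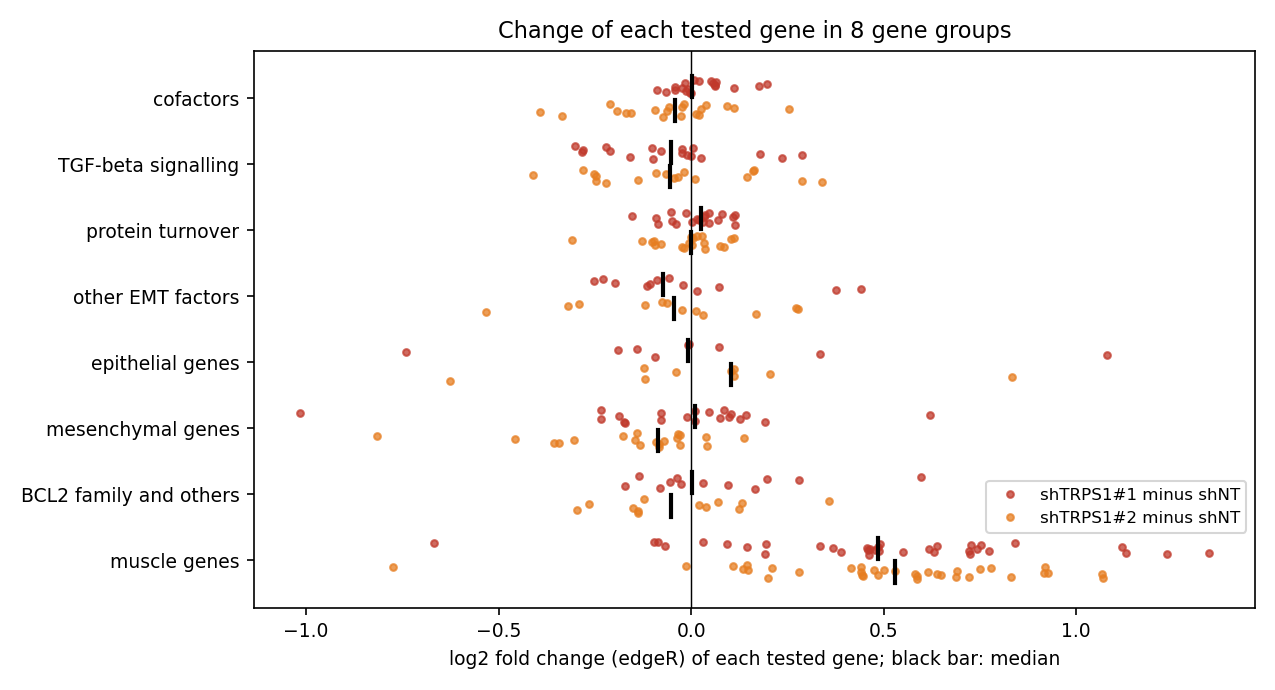
Each point is the edgeR log2 fold change of 1 tested gene against shNT, in 8 gene groups, for shTRPS1#1 above shTRPS1#2, and black bars are group medians. Muscle genes have medians of 0.48 and 0.53, while the medians of the cofactors are 0.003 and -0.04.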

How the data were processed

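The members and the gene lists were chosen with earlier results of these data known. The authors deposited read counts per gene and library and RPKM for the same genes. The RPKM equal the deposited counts divided by gene length and library total, so they add no information. Per the submitters' processing notes, GRCh38, featureCounts 1.6.5, STAR 2.7.2b and bcl2fastq 2.20.0.422 were used. The sources used here give neither annotation release nor strand setting. Per the labels' protocols, poly(A) RNA entered NEBNext Ultra II libraries.

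Of 60676 genes, 60357 were matched to a symbol. Counts were tested with edgeR 4.0.16 in R 4.3.3 (quasi-likelihood test, filterByExpr with a minimum count of 10, TMM scaling, 1 mean per group over all 9 libraries), with Benjamini-Hochberg adjustment over 17014 genes. The SE, |log2 fold change| over the root of F, and the 95% intervals are approximate. Every replicate pair differed by more than sampling noise. The test was checked on simulated counts. Gene positions and principal transcripts came from GENCODE release 29 on GRCh38, promoters from RefSeq; both may differ from the authors' annotation.

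The lists held cofactors, TGF-beta signalling, protein turnover, other transition factors, epithelial, mesenchymal, BCL2 family and muscle genes. From each list at most 5 genes were named, first those called with both hairpins in the same direction by the smaller change, then those with the smallest adjusted p, plus any called in opposite directions. Some genes that met this rule are not reported here. For each member the 3 genes with the highest r were named. MYMX, CDH1, KRT19, MIR200CHG and, among the genes shown for their sequence, NEB, TTN, MYL11, CKM, CLDN7 and RAB25 fall outside this rule and were chosen after their values were seen. MYL11 replaced its older symbol MYLPF. Alternatives were RLE and upper quartile scaling, no filter, the replicate number as a block, 2 groups only, DESeq2 1.42.0, limma 3.58.1 on log2(RPKM + 0.1) and log2(RPKM + 1), and leaving out each library.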

Additional observations from a re-analysis of the deposited data

Results flagged for a closer look

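ZEB2 was flagged because the hairpins differed in their effect on it by a test of the difference itself. It averaged 227.9 ± 2.83 CPM with shTRPS1#1, 192.0 ± 3.40 CPM with shTRPS1#2 and 196.2 ± 7.10 CPM with shNT (SD, n = 3 each). The difference of shTRPS1#2 minus shTRPS1#1 was -0.247 on the log2 scale (edgeR adjusted p = 1.13e-07), while TRPS1 itself was reduced to 57.8 CPM with shTRPS1#1 and 57.4 CPM with shTRPS1#2. Over all genes tested, 19.6% were called between the hairpins.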

How the results depend on the processing

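No member changed direction under any alternative, and every call of SNAI1, SNAI2 and ZEB2 remained under each of them. The log2 fold change of SNAI2 ran from -0.35 to -0.28 with shTRPS1#1 and from -0.42 to -0.39 with shTRPS1#2, that of SNAI1 with shTRPS1#2 from 0.39 to 0.60, and that of ZEB2 with shTRPS1#1 from 0.18 to 0.25. ZEB1 with shTRPS1#2 ran from 0.069 to 0.11 when 1 library was left out, and gained a call without shNT replicate 1 or shTRPS1#2 replicate 3. The replicate numbers did not pair the libraries: deviations of same-numbered libraries correlated at -0.016 to 0.048, and 0 of 9 pairs passed 0.1. With the replicate number as a block, 2505 genes were called with shTRPS1#1 and 3434 with shTRPS1#2, and no call of a member changed, while EZH2 (0.11, edgeR adjusted p = 0.0462) and USP37 (0.11, edgeR adjusted p = 0.0496) gained one with shTRPS1#1.

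The small counts of the lists moved most. Cofactors called with shTRPS1#1 numbered 2 under the replicate block, 0 with limma on log2(RPKM + 1) and 0 to 2 without 1 library. Turnover genes called with shTRPS1#1 numbered 0 with upper quartile scaling, without the filter, with 2 groups only and in DESeq2, 2 under the replicate block and 0 to 1 without 1 library. With shTRPS1#2 they numbered 1 in limma at either pseudocount and 1 to 3 without 1 library. Without 1 library, transition factors called with shTRPS1#2 numbered 3 to 5, epithelial genes 1 to 3 with shTRPS1#1 and 0 to 1 with shTRPS1#2, and mesenchymal genes with shTRPS1#2 7 to 12. DESeq2 called 0 epithelial genes with shTRPS1#2. Among 50 other genes named with their fold changes, no call turned its direction, 72 pairs of a call and an alternative lost it and 6 gained one. Calls against shNT that hang on 1 library are given with their genes. Calls lost in limma at either pseudocount included COL1A1, S100A4, TCF4 and KRT8 with shTRPS1#1, and ATM, SOX4 and BCL2L11 with shTRPS1#2. Without the filter, the shTRPS1#1 calls of GSK3A, S100A4 and KRT8 were lost. Upper quartile scaling also ended those of GSK3A and S100A4, and 2 groups only that of GSK3A. The cause of these moves was not tested.

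Levels with shNT depended on the scale. As TPM they were 9.89 for SNAI1, 127.9 for SNAI2, 97.5 for ZEB1 and 35.5 for ZEB2, and per kilobase of principal transcript 38.4 for SNAI2, 34.6 for ZEB1 and 20.6 for ZEB2. Counts limit SNAI1, at 73 to 124 per library, more than the other members.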
